A study of Drosophila melanogaster with 6 samples.

Results

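Bomanins are small secreted peptides of Drosophila melanogaster that the Toll pathway induces during infection. In that pathway, recognition proteins and proteases activate the ligand Spätzle, which binds the receptor Toll and leads to nuclear entry of the NF-kappaB factors Dif and Dorsal. The fat body, the insect counterpart of liver and adipose tissue, makes most of the peptides, and flies without the main Bomanin cluster are susceptible to Gram-positive bacteria and fungi. The short family (BomS) holds little more than the Bomanin motif, the tailed family (BomT) has an extension after it, and the bicipital family (BomBc) has a pair of such motifs joined by a linker.

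The 10 Bomanin genes examined here are the rows with the symbols IM1, IM2, IM3, IM23, CG15067, CG15068, CG18107, CG16836, CG5778 and CG5791, out of 15115 genes in the table. They were chosen by name. By their current symbols in RefSeq's table for Release 6, IM1, IM2, IM3, CG18107 and CG15068 are BomS1, BomS2, BomS3, BomS4 and BomS6. CG16836 and CG5778 are BomT2 and BomT3, and IM23, CG15067 and CG5791 are BomBc1, BomBc2 and BomBc3. The set therefore covers all 3 families, not the short one alone.

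RNA-seq was performed on whole pharate adult males, animals about to emerge from the pupal case, at 96 to 108 hours after puparium formation. Double H3.3K27R males carried yw, H3.3B K27R on their single X chromosome and H3.3A K27R on both copies of chromosome 2. H3.3BK27R males carried yw and H3.3B K27R, with H3.3A wild type. Wild type males were yw, which is named in all 3 genotypes. The authors made the H3.3B and H3.3A alleles in different Cas9 strains, so the rest of the genome may differ between genotypes. Each genotype had 2 libraries, and each library was made from total RNA of a pool of whole males. K27R replaces lysine 27 of the replication-independent histone H3.3 with arginine, which cannot be acetylated or methylated as lysine is, and was introduced with CRISPR. The labels name no change in the replication-dependent H3 genes in any group. The comparisons ask how the levels of transcripts depend on lysine 27 of H3.3 from 1 or from both of its genes.

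Between 1535941 and 2118264 reads were counted on genes in a library. A K27R substitution leaves the transcript in place, so the level of H3.3 RNA does not check the genotype. H3.3A ranged over 40.8 to 63.6 RPKM and H3.3B over 101 to 126 RPKM. RPKM divides the reads of a gene by its length and by the depth of the library, so that genes are compared per length. The RNAs roX1 and roX2, made in males, summed to between 185 and 242 RPKM, and the 3 yolk protein genes of females summed to at most 2.92 RPKM. The samples are whole animals, so fewer cells of a type and less RNA per cell cannot be told apart. No label says whether the 2 libraries of a genotype came from separate cultures, and p values measure only the spread between these libraries.

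The Bomanin genes together had 716 reads in the 6 libraries, of which 396 were from IM3. IM3 averaged 132 RPKM over the 6 libraries, at the 95.1 percentile of the 11304 genes with a mean of at least 1 RPKM. CG15068 averaged 36.0 RPKM, CG5778 21.3 RPKM and IM2 10.8 RPKM, and these 4 genes had reads in every library. CG18107 averaged 7.54 RPKM and CG15067 2.93 RPKM, each with reads in 5 libraries. IM23 averaged 1.52 RPKM with 7 reads in all, and IM1 averaged 1.41 RPKM with 5 reads in all. CG16836, at 0.716 RPKM and 2 reads, and CG5791, at 0.872 RPKM and 6 reads, were below the mean of 1 RPKM required for the test. In wild type males alone, IM3 stood at the 90.6 percentile. The order over all 6 libraries is not that of each genotype, since in H3.3BK27R males CG18107 averaged 16.7 RPKM and IM2 2.94 RPKM. Neighbours in the lower part of this order differ by a few reads, which is within counting error.

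Of the 10 members, 8 passed the filter, and IM1 and IM23 passed it through the double H3.3K27R libraries, since neither reached a mean of 1 RPKM in the H3.3BK27R or wild type libraries. A library with 0 reads of a gene still allows up to 3 reads. For IM1 that floor lies between 3.96 and 5.46 RPKM, depending on the library, and for IM23 between 3.05 and 4.20 RPKM. The reads were recovered from the deposited RPKM with the smallest gene length that makes every value whole, and so are the fewest reads that the values allow. The recovered lengths lie between 189 bases for CG15068 and 692 bases for CG5778. For CG5791, with 629 bases recovered and 1301 bases of exons in the BDGP6 annotation, more reads than the 6 recovered are possible. The same holds for IM3, with 300 bases recovered and 769 bases of exons, if its reads in every library share a factor. Intervals and floors cover counting error only, since the reads carry no molecular identifiers as far as the sources used here say.

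**Figure D1:**
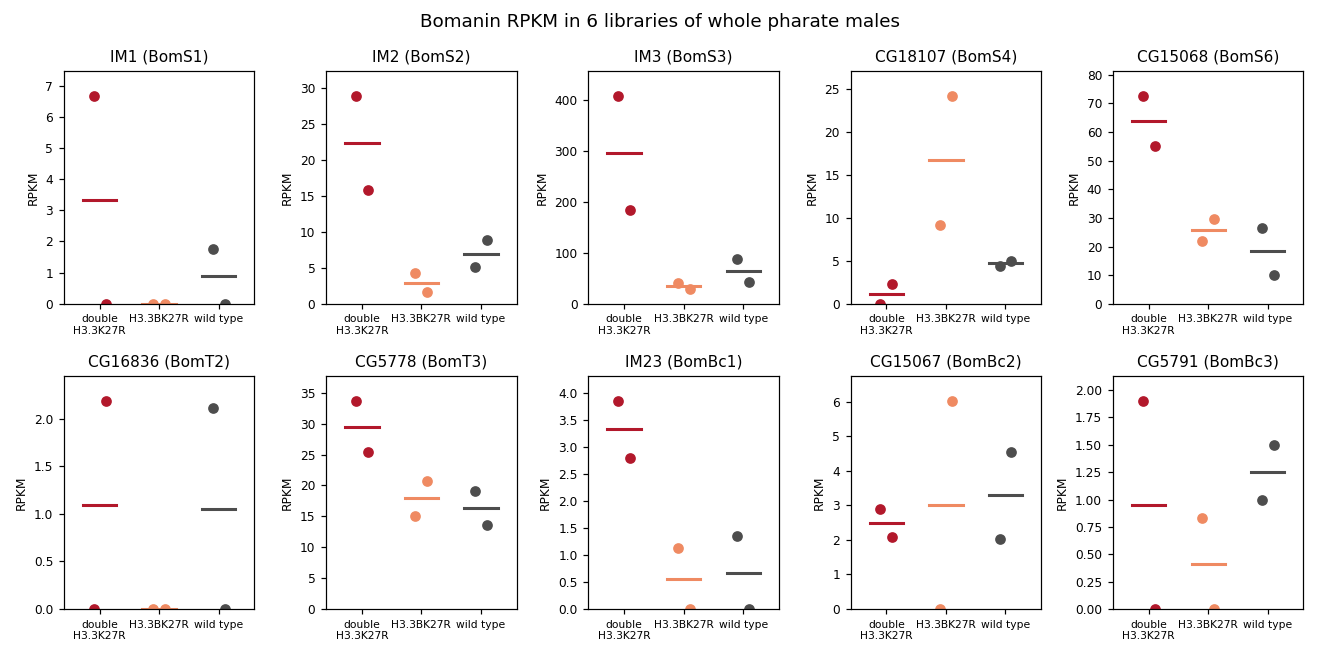
RPKM (vertical axis, linear, with its own scale in each panel) of the 10 Bomanin genes in double H3.3K27R, H3.3BK27R and wild type libraries. Points are the 2 libraries of a genotype, with replicate 1 on the left, and bars are their means. IM2, IM3, CG15068, CG5778 and IM23 have both double H3.3K27R points above the other 4 points, and CG18107 has both of them below.

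The most abundant Bomanin transcript, the short peptide gene IM3, was several times more abundant in double H3.3K27R males than in either other genotype, but its change did not pass the test across all genes. IM3 had 408 and 184 RPKM in double H3.3K27R males, 40.0 and 29.1 RPKM in H3.3BK27R males, and 88.0 and 42.5 RPKM in wild type males. Both double H3.3K27R libraries lay above the other 4, and both H3.3BK27R libraries lay below both wild type libraries. Behind these values are 205 and 85 reads in double H3.3K27R males, 23 and 14 reads in H3.3BK27R males and 42 and 27 reads in wild type males. The exact 95% Poisson intervals are 178 to 235 and 67.9 to 105 reads in the double H3.3K27R libraries, so that these replicates differ by more than counting error.

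Against wild type, the log2 fold change of IM3 in double H3.3K27R males was 2.15 ± 0.46 (SE; limma on log2(RPKM + 1), 2 libraries a genotype). The unadjusted p of limma was 0.00278 and the p adjusted over all genes tested was 0.113. Over single pairs of libraries the IM3 ratio of double H3.3K27R to wild type ranged from 2.10 to 9.61. The pooled reads, scaled to depth, gave a ratio of 4.86 with an exact 95% interval of 3.72 to 6.41, which covers counting error only. The 95% interval of limma, which uses the spread between libraries, was 1.05 to 3.25 on the log2 scale. Between other settings of the test the adjusted p ranged from 0.0245, with voom weights on the recovered reads, to 0.228, without a trend in the variance. With a block for replicate number it was 0.0499, and 0.146 with the double H3.3K27R numbers crossed, while the numbers were not found to pair the libraries. With any 1 library left out the adjusted p ranged from 0.187 to 0.352.

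Against H3.3BK27R males, the log2 fold change of IM3 in double H3.3K27R males was 2.97 ± 0.46 (SE), with a limma adjusted p of 0.0781. Here the alternatives gave adjusted p values between 0.0202, with voom weights, and 0.183, without a trend. It was 0.0339 with the block, 0.108 with the crossed block, and 0.139 to 0.359 with any 1 library left out. In H3.3BK27R males against wild type, the IM3 difference was -0.82 ± 0.46 on the log2 scale (limma adjusted p = 0.513).

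IM2 encodes another short Bomanin and lies next to IM3. It had 28.9 and 15.8 RPKM in double H3.3K27R males, 4.21 and 1.68 RPKM in H3.3BK27R males, and 5.07 and 8.88 RPKM in wild type males. Its order across genotypes was that of IM3, with no overlap in RPKM between any of the 3 groups. H3.3BK27R replicate 1 and wild type replicate 1 each had 3 reads of IM2, so only depth separates these libraries. The log2 fold change was 1.53 ± 0.44 in double H3.3K27R males against wild type (limma adjusted p = 0.202) and 2.58 ± 0.44 against H3.3BK27R males (adjusted p = 0.0940). In H3.3BK27R males against wild type it was -1.05 ± 0.44 (adjusted p = 0.411), on 4 reads against 10.

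CG15068, the short Bomanin gene at the far end of the 2R cluster, had 72.7 and 55.1 RPKM in double H3.3K27R males, 22.1 and 29.7 RPKM in H3.3BK27R males, and 26.6 and 9.99 RPKM in wild type males. The H3.3BK27R and wild type libraries overlapped and the double H3.3K27R libraries were above both. Its log2 fold change was 1.88 ± 0.42 in double H3.3K27R males against wild type (limma adjusted p = 0.123) and 1.27 ± 0.42 against H3.3BK27R males (adjusted p = 0.294). The pooled reads were 39 in double H3.3K27R males, 17 in H3.3BK27R males and 12 in wild type males.

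CG18107, the short Bomanin gene BomS4, had the opposite order. It had 0 and 2.30 RPKM in double H3.3K27R males, 9.22 and 24.3 RPKM in H3.3BK27R males, and 4.44 and 5.0 RPKM in wild type males. These values rest on 0 and 1 read in double H3.3K27R males, 5 and 11 reads in H3.3BK27R males, and 2 and 3 reads in wild type males. The log2 fold change in double H3.3K27R males was -3.14 ± 0.64 against H3.3BK27R males (limma adjusted p = 0.125) and -1.65 ± 0.64 against wild type (adjusted p = 0.312). Without double H3.3K27R replicate 1 it was -2.28 against H3.3BK27R males and -0.79 against wild type, and without replicate 2 it was -4.01 and -2.51. In H3.3BK27R males against wild type it was 1.49 ± 0.64 (adjusted p = 0.420).

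In the BDGP6 annotation CG18107 overlaps CG15067 on the other strand, and no source used here says whether reads were counted by strand, so the split of reads between these 2 genes is uncertain. CG15067, the bicipital BomBc2, had 3 and 2 reads in double H3.3K27R males, 0 and 6 reads in H3.3BK27R males, and 2 and 6 reads in wild type males. Together the pair had 3 and 3 reads in double H3.3K27R males, 5 and 17 reads in H3.3BK27R males, and 4 and 9 reads in wild type males. The sum of the pair, not scaled to depth, was thus lowest in both double H3.3K27R libraries. The exact Poisson interval of 3 reads is 0.619 to 8.77. It covers the 5 reads of H3.3BK27R replicate 1 and the 4 of wild type replicate 1. It does not cover the 17 reads of H3.3BK27R replicate 2. The 9 reads of wild type replicate 2 lie just outside it, but they are not scaled and that library is the deepest, at 2118264 reads. With so few reads the sums cannot decide whether the lower level of CG18107 holds for the pair. CG15067 alone had 2.88 and 2.09 RPKM in double H3.3K27R males, 0 and 6.02 RPKM in H3.3BK27R males, and 2.02 and 4.55 RPKM in wild type males, and the groups overlapped. Its log2 fold changes lay between -0.63 and 0.39 in the 3 comparisons, each smaller than its SE of 0.87.

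IM1, the short Bomanin BomS1, had 6.68 and 0 RPKM in double H3.3K27R males, 0 RPKM in both H3.3BK27R libraries, and 1.76 and 0 RPKM in wild type males. Its 4 reads in double H3.3K27R replicate 1 were the only ones in the mutants. Over the group these 4 reads, taken as exact, are 1.46-fold above the floor of 3 reads for H3.3BK27R males. With counting error on both sides, the exact lower bound of the ratio of pooled reads was 0.724. The log2 fold change against H3.3BK27R males was 1.47 ± 1.00 (SE), with a limma interval of -0.95 to 3.89. An increase of IM1 was therefore not established. Without double H3.3K27R replicate 1, IM1 was at 0 in both mutant genotypes.

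The tailed CG5778 (BomT3), the best counted member after IM3, is a 3R gene. It had 33.7 and 25.4 RPKM in double H3.3K27R males, 15.1 and 20.7 RPKM in H3.3BK27R males, and 19.1 and 13.6 RPKM in wild type males. Both double H3.3K27R libraries were again above the other 4. The log2 fold change was 0.82 ± 0.24 against wild type (limma adjusted p = 0.214) and 0.69 ± 0.24 against H3.3BK27R males (adjusted p = 0.316). H3.3BK27R males differed from wild type by 0.13 ± 0.24 (adjusted p = 0.878). The other tailed gene, CG16836, had 0 and 2.18 RPKM in double H3.3K27R males, 0 RPKM in both H3.3BK27R libraries, and 2.11 and 0 RPKM in wild type males, and each value above 0 is 1 read.

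Of the bicipital genes, IM23 had 3.85 and 2.80 RPKM in double H3.3K27R males, 1.12 and 0 RPKM in H3.3BK27R males, and 1.35 and 0 RPKM in wild type males. That is 5 reads in double H3.3K27R males against 1 in each of the other genotypes. The ratio of pooled reads to wild type was 5.78, with an exact 95% interval of 0.647 to 273, and the log2 fold change was 1.49 ± 0.59 (limma adjusted p = 0.322). CG5791, next to CG5778 on 3R, had 1.90 and 0 RPKM in double H3.3K27R males, 0.830 and 0 RPKM in H3.3BK27R males, and 0.999 and 1.50 RPKM in wild type males. No order can be read from its 6 reads.

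**Figure D2:**
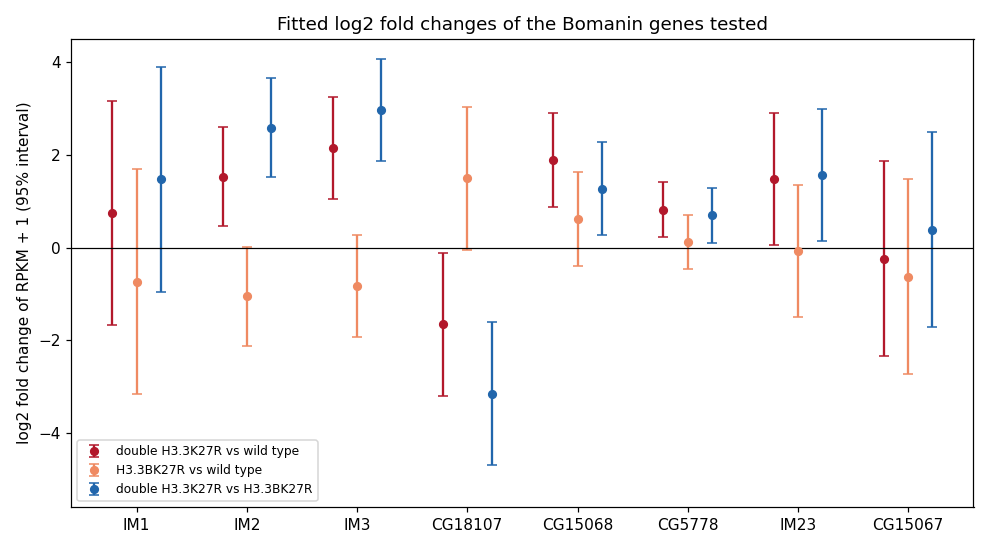
Log2 fold changes of RPKM + 1 (vertical axis) for the 8 Bomanin genes tested, in 3 comparisons, with 95% intervals from limma. In double H3.3K27R against wild type the intervals of IM2, IM3, CG15068, CG5778 and IM23 lie above 0 and that of CG18107 below 0. No gene passed after adjustment over 11304 genes.

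A gene was called where its adjusted p was under 0.01 and it changed by more than 1 on the log2 scale. By limma, 0 of the 8 Bomanin genes tested were called in any comparison. In double H3.3K27R males against wild type 0.0619% of all genes tested were called higher and 0.0708% lower. At an adjusted p below 0.05 by limma the count was 0 again, beside 0.425% of all genes tested in the higher and 0.407% in the lower direction, while voom weights and the block each took it to 1, IM3, in double H3.3K27R against wild type and against H3.3BK27R. With the double H3.3K27R numbers of the block crossed, IM3 did not pass in either comparison (adjusted p = 0.146 and 0.108). At an unadjusted p below 0.05, 5 of the 8 members were higher and 1 lower in double H3.3K27R males against wild type, where 7.19% of all genes tested were higher and 7.59% lower. One of those 5, IM23, had passed the filter through the double H3.3K27R libraries. Among the 6 members with at least 1 RPKM in each genotype, 4 were higher and 1 lower.

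Both double H3.3K27R libraries lay above both wild type libraries for 5 of the 8 members and below both for 1. Over all genes tested these shares were 22.4% and 22.2%. IM23, which passed the filter through the double H3.3K27R libraries, was among those 5 members. The median log2 fold change of the 8 members was 1.15, and that of all genes tested was -0.000493. Over all 10 members, without the filter on low values, the median was 0.78. It was 0.73 without wild type replicate 2 and was 1.81 without double H3.3K27R replicate 2, in which 7 of the 8 members had less than in replicate 1.

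Between the 2 mutants, which differ in H3.3A, 5 of the 8 members were higher and 1 lower in double H3.3K27R males at an unadjusted p below 0.05, beside 7.42% and 5.06% of all genes tested. One of the 5 was again IM23, and among the 6 members with at least 1 RPKM in each genotype 4 were higher and 1 lower. Here 0.0177% of all genes tested were called higher and 0.0442% lower, and at an adjusted p below 0.05 these shares were 0.15% and 0.159%. Both double H3.3K27R libraries lay above both H3.3BK27R libraries for 5 of the 8 members and below both for 1, where 25.5% and 19.2% of all genes tested did so. IM23, which passed the filter through the double H3.3K27R libraries, was among these 5 as well. The median of the members was 1.37, against 0.0310 over all genes. With IM1 set at 1.46-fold, its value over the floor of 3 reads, the median was 0.98. Without double H3.3K27R replicate 1 the median was 0.79. Both comparisons use the same double H3.3K27R libraries, so their values are not separate evidence.

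In H3.3BK27R males against wild type, 0 of the 8 members had an unadjusted p below 0.05, where 4.22% of all genes tested were higher and 8.14% lower. Of all genes tested 0% were called higher and 0.00885% lower, and 0.0354% and 0.0265% passed an adjusted p of 0.05. Both H3.3BK27R libraries lay above both wild type libraries for 1 of the 8 members and below both for 2, beside 19.6% and 25.3% of all genes tested. The member median was -0.35, or -0.07 with IM1 left out, against -0.02 over all genes, and it changed sign to 0.18 without wild type replicate 1. The 95% intervals of the difference for the 2 best counted genes were -1.92 to 0.28 for IM3 and -0.46 to 0.71 for CG5778.

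Summed over the 10 genes, Bomanin transcripts made up 177 and 93.1 RPM (reads scaled to a library of 1000000 counted reads) in double H3.3K27R males, 31.8 and 39.9 in H3.3BK27R males, and 51.5 and 32.6 in wild type males. The groups of double H3.3K27R and the other libraries did not overlap. With IM3 left out, the sum was 55.0 and 37.8 RPM in double H3.3K27R males, 19.8 and 31.2 in H3.3BK27R males, and 25.1 and 19.8 in wild type males. IM3 held 69.0% and 59.4% of the Bomanin reads in double H3.3K27R males, 37.7% and 21.9% in H3.3BK27R males, and 51.2% and 39.1% in wild type males. The exact 95% intervals of those shares were 63.4 to 74.2% and 50.9 to 67.6% in double H3.3K27R males, 25.6 to 51.0% and 12.5 to 34.0% in H3.3BK27R males, and 39.9 to 62.4% and 27.6 to 51.6% in wild type males. That of double H3.3K27R replicate 2 overlapped those of both wild type libraries and of H3.3BK27R replicate 1.

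**Figure D3:**
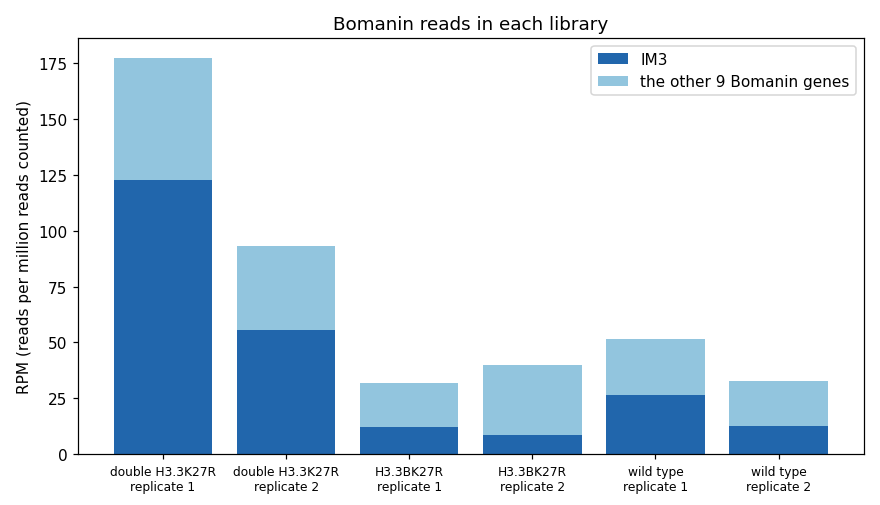
Bomanin RPM (vertical axis) in each of the 6 libraries, divided into IM3 and the other 9 genes. The double H3.3K27R libraries hold 177 and 93.1 RPM in all, against 31.8 to 51.5 in the other 4.

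Of the members, 8 lie on chromosome arm 2R within 1 uninterrupted run of 10 Bomanin genes in the BDGP6 annotation, and CG5778 and CG5791 are neighbours on 3R. The run also holds CG15065 (BomS5), with 1 read in each double H3.3K27R library and 0 in the other 4, and CG43202 (BomT1), with 0 reads in every library. The gene that follows the run, Idgf5, an imaginal disc growth factor, had 9.98 and 7.40 RPKM in double H3.3K27R males, 11.2 and 14.2 RPKM in H3.3BK27R males, and 7.56 and 9.47 RPKM in wild type males. Its difference in double H3.3K27R males against wild type was 0.02 ± 0.23 on the log2 scale (limma adjusted p = 0.981). On 3R the flanking genes CG13408 and CG13407 were at 1.05 RPKM or less in every library. H3.3A lies on 2L, so the 2R genes are on the same chromosome as the allele that sets double H3.3K27R males apart. Sequence carried along with the allele and the allele itself cannot be told apart for them. For genes elsewhere, those on 3R included, differences in background between the genotypes were not tested.

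Across the 6 libraries, log2(RPKM + 1) of IM3 had a Pearson r of 0.90 with IM2, 0.80 with CG15068 and 0.85 with CG5778. It was 0.91 with IM23, 0.76 with IM1, -0.02 with CG15067 and -0.94 with CG18107. These r values are descriptions over 6 libraries that share genotype and depth. IM23, IM1, CG15067 and CG18107 had only 7, 5, 19 and 22 reads in all. The 5 genes outside the family with the profile most like the mean of the 8 members, among 3794 genes with a range of at least 1 on the log2 scale, were CG1544, lectin-24Db, Pros35, CS-2 and ubl, with r of 0.96 to 0.99. Of these, lectin-24Db, a C-type lectin gene, had 7.71 and 6.16 RPKM in double H3.3K27R males, 3.14 and 3.76 RPKM in H3.3BK27R males, and 4.33 and 2.84 RPKM in wild type males. CG1544 had 14.1 and 10.7 RPKM in double H3.3K27R males, 5.16 and 7.02 RPKM in H3.3BK27R males, and 7.29 and 5.96 RPKM in wild type males. The immune genes taken up below stood lower among the 3794. IM14 ranked 38, IM4 138, Drs 164, Mtk 182, CG18067 241 and Dro 528.

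Bombardier (CG18067), a protein that short Bomanins need to reach or persist in the hemolymph, had 68.3 and 72.0 RPKM in double H3.3K27R males, 28.5 and 21.7 RPKM in H3.3BK27R males, and 43.7 and 40.5 RPKM in wild type males. The 3 groups did not overlap and stood in the same order as those of IM3. The log2 fold change of CG18067 in double H3.3K27R males was 1.46 ± 0.16 against H3.3BK27R males (limma adjusted p = 0.0320, 0.00593 to 0.109 under other settings, and 0.116 to 0.233 with any 1 library left out) and 0.72 ± 0.16 against wild type (adjusted p = 0.115).

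Other peptides that Toll controls included 1 gene called at the full thresholds. Mtk, which encodes the antifungal peptide Metchnikowin, had 82.5 and 53.4 RPKM in double H3.3K27R males, 17.5 and 16.3 RPKM in H3.3BK27R males, and 7.03 and 8.81 RPKM in wild type males. Behind these values are 37 and 22 reads in double H3.3K27R males, 9 and 7 in H3.3BK27R males, and only 3 and 5 in wild type males. Mtk rose by 2.93 ± 0.23 on the log2 scale in double H3.3K27R males against wild type (limma adjusted p = 0.00756). Under the 10 other settings of the test its adjusted p ranged from 0.00577 to 0.0518 and was below 0.01 in 4. With any 1 of the 6 libraries left out it ranged from 0.0452 to 0.131, so that the call was lost each time, while the log2 fold change stayed between 2.62 and 3.23. In the same fits between 1 and 5 genes were called over all genes tested, against 15 with all libraries. Drs, which encodes the antifungal peptide Drosomycin, had 264 and 225 RPKM in double H3.3K27R males, 72.8 and 54.8 RPKM in H3.3BK27R males, and 79.6 and 106 RPKM in wild type males. Its log2 fold change against wild type was 1.40 ± 0.20, with a limma adjusted p of 0.0436, so that Drs passed at 0.05 but not at 0.01, and other settings gave 0.00457 to 0.138. With any 1 library left out it ranged from 0.0982 to 0.207. IM4, also known as Daisho 1, had 144 and 107 RPKM in double H3.3K27R males, 58.7 and 94.0 RPKM in H3.3BK27R males, and 55.6 and 65.5 RPKM in wild type males (limma adjusted p = 0.145 against wild type). IM14 did not reach an unadjusted p of 0.05, and IM10 and CG33470, near-identical copies, were listed at 0 in every library. Thus 2 of the 4 genes tested were higher at an adjusted p below 0.05, where 0.425% of all genes tested were.

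Upstream in the pathway, 21 Toll components from recognition to transcription factors were all tested, and 0 passed an adjusted p of 0.05 in any comparison by limma. In double H3.3K27R males against wild type 0 had an unadjusted p below 0.05 in the higher direction and 1 in the lower. That gene was modSP, an apical protease, with 4.96 and 5.97 RPKM in double H3.3K27R males and 8.51 and 7.63 RPKM in wild type males. At that threshold 7.19% of all genes tested were higher and 7.59% lower. The median log2 fold change of the 21 was 0.14. Spz, the gene of the ligand, had 17.7 and 26.7 RPKM in double H3.3K27R males, 9.05 and 8.97 RPKM in H3.3BK27R males, and 21.0 and 16.0 RPKM in wild type males. Its log2 fold change was 1.18 ± 0.24 in double H3.3K27R against H3.3BK27R males (limma adjusted p = 0.123) and -0.95 ± 0.24 in H3.3BK27R males against wild type (adjusted p = 0.246). In double H3.3K27R against H3.3BK27R males the recognition protein gene PGRP-SD, the protease gene SPE and the serpin gene nec also had an unadjusted p below 0.05, with log2 fold changes of 1.01 ± 0.26, 0.49 ± 0.20 and 0.72 ± 0.28 (limma adjusted p = 0.196, 0.386 and 0.379). With spz these were 4 of the 21 components, beside 7.42% of all genes tested that were higher.

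The Imd pathway is the other NF-kappaB pathway of the fly, used mainly against Gram-negative bacteria. Of its 11 peptide genes tested, 6 were higher at an unadjusted p below 0.05 in double H3.3K27R males against wild type, where 7.19% of all genes tested were, and 0 passed an adjusted p of 0.05 by limma. Dro, which encodes Drosocin, had 96.2 and 231 RPKM in double H3.3K27R males, 29.6 and 23.9 RPKM in H3.3BK27R males, and 10.8 and 28.6 RPKM in wild type males. The highest Dro value was in double H3.3K27R replicate 2, where IM3 had the lower of its values. AttC, an attacin gene, had 13.3 and 7.96 RPKM in double H3.3K27R males, 1.16 and 0 RPKM in H3.3BK27R males, and 0 and 1.57 RPKM in wild type males. AttC passed the filter through the double H3.3K27R libraries, since it reached a mean of 1 RPKM in neither other genotype. AttA and AttB, which are near-identical and may share reads, were 2 others of the 6. AttA had 4.72 and 8.58 RPKM in double H3.3K27R males, 0.688 and 0 RPKM in H3.3BK27R males, and 0.828 and 1.87 RPKM in wild type males. AttB had 4.76 and 2.96 RPKM in double H3.3K27R males, 1.19 and 1.42 RPKM in H3.3BK27R males, and 0.715 and 0 RPKM in wild type males. Neither AttA nor AttB reached a mean of 1 RPKM over the H3.3BK27R and wild type libraries together. In double H3.3K27R males AttA had 6 and 10 reads, AttB 7 and 4, and AttC 20 and 11. In wild type males AttA had 1 and 3 reads, AttB 1 and 0, and AttC 0 and 3. The count of 6 thus includes genes that passed the filter through the double H3.3K27R libraries. Among 9 Imd pathway components, 1 was higher in double H3.3K27R males against wild type at an unadjusted p below 0.05. That count is near the share of 7.19% over all genes tested. The gene was Rel, the NF-kappaB factor, with a log2 fold change of 0.56 ± 0.16 (limma adjusted p = 0.196). Against H3.3BK27R males Rel differed by 0.51 ± 0.16 (limma adjusted p = 0.264) and BG4, the adaptor FADD of the pathway, by 0.91 ± 0.29 (adjusted p = 0.277). These were the 2 of the 9 that were higher there at an unadjusted p below 0.05, beside 7.42% of all genes tested.

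**Figure D4:**
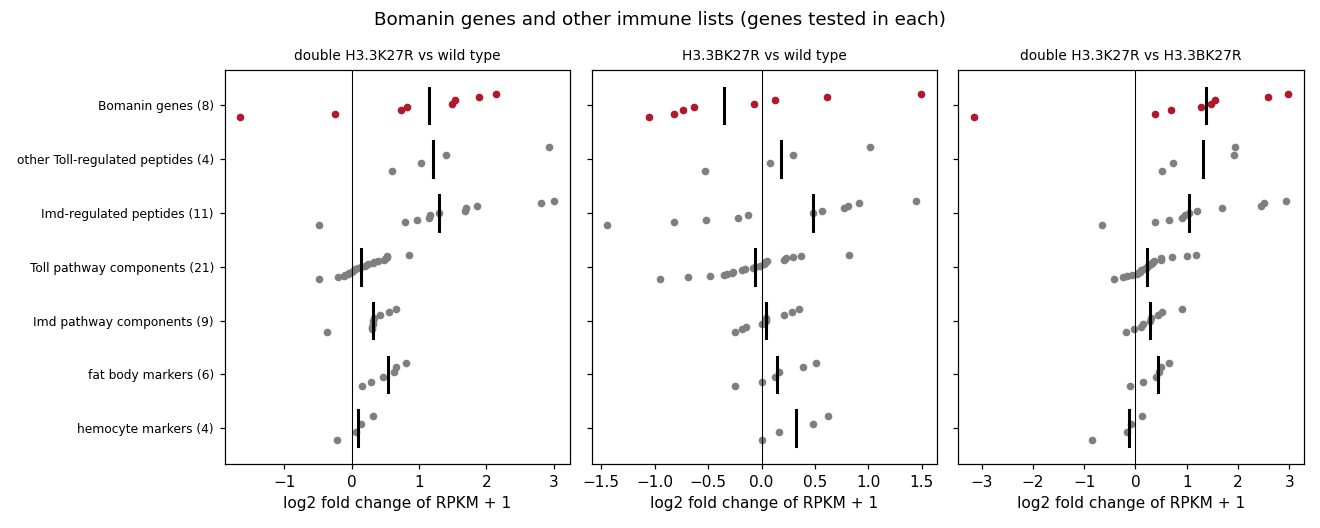
Log2 fold changes of RPKM + 1 (horizontal axis, with its own scale in each panel) of the Bomanin genes and 6 other lists in the 3 comparisons. Each point is a gene tested, the vertical bars are medians, and the number tested stands beside each list. In double H3.3K27R against wild type the medians are 1.15 for Bomanin genes, 1.22 for other Toll-regulated peptides, 1.30 for Imd-regulated peptides and 0.14 for Toll components.

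Of the fat body markers, all 6 had positive log2 fold changes in double H3.3K27R males against wild type, 3 of them with an unadjusted p below 0.05 (Lsp2, Rfabg and Pepck), and 0 at an adjusted p below 0.05 by limma. Over all genes tested 7.19% were higher at the unadjusted and 0.425% at the adjusted threshold. Their summed level was 4823 and 5716 RPKM in double H3.3K27R males, 4036 and 3328 RPKM in H3.3BK27R males, and 3192 and 3722 RPKM in wild type males. Lsp2, a larval storage protein gene, had the largest fitted change of the 6, at 0.81 ± 0.17 on the log2 scale, beside 2.15 ± 0.46 for IM3. Rfabg, the apolipophorin gene, stood at 0.66 ± 0.17 and Pepck, which encodes a gluconeogenic enzyme, at 0.47 ± 0.13. Lsd-1, the gene of a perilipin of lipid droplets, had an unadjusted p below 0.05 in H3.3BK27R males against wild type, at 0.39 ± 0.13 (limma adjusted p = 0.338). The 5 hemocyte markers of the table summed to 73.2 and 72.2 RPKM in double H3.3K27R males, 88.8 and 82.8 RPKM in H3.3BK27R males, and 73.3 and 62.2 RPKM in wild type males. Of these, He was at 0 in 5 of the 6 libraries, and Hml, eater, srp and Pxn were tested. None passed an adjusted p of 0.05, and Pxn, a peroxidasin gene, differed by -0.84 ± 0.17 in double H3.3K27R against H3.3BK27R males (limma adjusted p = 0.120). The part of fat body content in the Bomanin levels was not tested.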

How the data were processed

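RNA-seq was analysed in 6 libraries of whole pharate males. The authors aligned reads with STAR 2.5.2b to a modified dm3 genome, counted them with Subread 1.28.1 and deposited RPKM values made with their own R script. SAMtools 1.3.1 and DESeq2 1.18.1 are also named in the submitters' processing notes. The deposited DESeq2 results, which hold base means, fold changes and p values, were not used. All 73342 RPKM values above 0 (100%) gave whole reads within 0.01 of a read. Genes averaging at least 1 RPKM were tested with limma 3.58.1 in R 4.3.3 (lmFit, eBayes with a trend) on log2(RPKM + 1), 3 genotypes in 1 fit, with Benjamini-Hochberg adjustment over 11304 genes. A log2 fold change on this scale understates the change of low genes. Since the files hold RPKM, voom replaced a count test. The script was tested on simulated data. Exact permutation of 2 against 2 libraries cannot go below p = 0.333.

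The members and lists were chosen with earlier results of these data known. Every member is named; of each list, genes with an unadjusted p below 0.05 are given, at most 4. The genes most alike are the 5 with the highest Pearson r. Idgf5, CG15067 and other neighbours are given by position. Arms and order come from BDGP6, names from RefSeq's Release 6 table, and no coordinates are given because the builds differ. Sequences and promoter motifs were not analysed here. Alternatives were the pseudocount, the filter, 2 normalizations, 2 genotypes only, a replicate block, voom, no trend, the threshold and each library left out; settings chosen after seeing the data were the swapped block and the adjusted p below 0.05 with voom or the block, and all settings for Mtk, Drs and CG18067.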

Additional observations from a re-analysis of the deposited data

Results flagged for a closer look

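The Bomanin genes IM3, IM2 and CG18107 had both double H3.3K27R libraries on one side of both wild type libraries and both H3.3BK27R libraries on the other, as did 418 of the 11304 genes tested (3.70%). The log2 fold change of double H3.3K27R against H3.3BK27R males was 2.97 for IM3 (limma adjusted p = 0.0781), 2.58 for IM2 (adjusted p = 0.0940) and -3.14 for CG18107 (adjusted p = 0.125), so the test of the difference did not pass for these genes. For IM2, H3.3BK27R replicate 1 and wild type replicate 1 had 3 reads each, so only depth separates these libraries. Both mutants are set against the same wild type libraries.

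The list genes CG18067, Drs and Mtk differed between the mutants at a limma adjusted p below 0.05. The log2 fold change of double H3.3K27R against H3.3BK27R males was 1.46 for CG18067 (adjusted p = 0.0320), 1.93 for Drs (adjusted p = 0.0282) and 1.91 for Mtk (adjusted p = 0.0430), higher in 2 of 2 double H3.3K27R libraries each. With any 1 library left out the adjusted p ranged from 0.116 to 0.233 for CG18067, from 0.0995 to 0.193 for Drs and from 0.115 to 0.299 for Mtk, so that none of the 3 differences passed. Groups of 2 libraries were not tested for single libraries that stand apart.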

How the results depend on the processing

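No Bomanin gene was called under any alternative at the full thresholds, with each library left out included (0 to 0 in every comparison). A replicate block cannot move the fold changes, since each block holds 1 library of each genotype, and its median is the same 1.15 in double H3.3K27R against wild type. At an adjusted p below 0.05, voom weights and the replicate block each gave 1 gene, IM3, in double H3.3K27R against wild type and 1 against H3.3BK27R, and 0 in H3.3BK27R against wild type. With the double H3.3K27R numbers of the block crossed, the adjusted p of IM3 was 0.146 against wild type and 0.108 against H3.3BK27R. The median in H3.3BK27R against wild type changed sign to 0.13 with a mean RPKM of at least 5, where 5 members remained, and ranged from -0.44 to 0.18 over libraries left out. That in double H3.3K27R against H3.3BK27R was 2.33 with a pseudocount of 0.1 and ranged from 0.79 to 1.60. That in double H3.3K27R against wild type ranged from 0.73 to 1.81. A library left out leaves a lone library that is assumed to vary like the others. The cause of these shifts was not tested.

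Mtk kept its direction in every alternative and passed 0.01 in 4 of 10 settings and with none of the libraries left out. Genes called among all tested in double H3.3K27R against wild type were 15, and 53 with voom, 3 with the block, 4 in a fit of the 2 genotypes, 4 without a trend and 94 at an adjusted p below 0.05. Between the mutants they were 7, and 40 with voom, 4 with no filter, 2 with the block, in a fit of the 2 genotypes or without a trend, and 35 at an adjusted p below 0.05. In H3.3BK27R against wild type they were 1, and 7 with voom or at an adjusted p below 0.05. Deviations from the group means of same-numbered libraries correlated at -0.21 between double H3.3K27R and wild type, 0.02 between H3.3BK27R and wild type and 0.01 between the mutants, so the numbers do not pair the libraries. With the double H3.3K27R numbers crossed, 3 genes were called in double H3.3K27R against wild type, 1 in H3.3BK27R against wild type and 2 between the mutants. Depth limits 6 of the 10 members, which had 22 reads or fewer in all.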
